A study of Mus musculus with 10 samples.

Results

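The genes described here are the nuclear-encoded subunits of the mitochondrial respiratory chain and of ATP synthase, taken by symbol: names that begin with Ndufa, Ndufb, Ndufc, Ndufs or Ndufv, with Uqcr, with Cox4 to Cox8, or with Atp5. The table holds 88 such genes among 26173, and 82 of them reached 1 FPKM in 2 or more of the 10 columns, as did 11336 genes in all. FPKM is a level per length of transcript, scaled for sequencing depth. The 82 comprise 36 subunits of complex I, 7 complex I assembly factors, 8 genes of complex III, 15 of complex IV, 14 of ATP synthase and 2 genes named after ATP synthase that do not encode a subunit (Atp5s and Atp5sl). Of these, 76 were at 1 FPKM or more in all 10 columns. The other 6 passed with fewer columns, Ndufaf6 with 2 being the nearest to the limit. The 6 that did not pass are Cox4i2, Cox7b2, Cox8b, Cox8c, Ndufa4l2 and Atp5c1-ps; 4 of them were listed at 0 in every column, and Cox7b2 reached at most 0.226 FPKM, the nearest below the limit.

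The samples are alveolar macrophages, the resident phagocytes of the lung airspace, from mice labelled female, on the C57BL/6 background and 16 weeks old. There were 5 groups with 2 deposited columns each. One line carries a floxed Bach2 and a Cre under Cd4: its groups are a control (conditional control), knockout macrophages with the surface markers of control cells (normal-marker) and knockout macrophages with aberrant ones (aberrant-marker). In the other line a germline Bach2 knockout was set against wild type. Bach2 is a transcriptional repressor known for its role in lymphocytes. The Cd4 driver is known for T cells, so macrophages of the conditional line need not themselves have lost Bach2, and the 2 knockout fractions were chosen by their surface markers. Bach2 itself was listed at 0.0761 FPKM or less in all 10 columns, wild type included, so its level does not check the genotypes. How many mice gave each sample is not stated in the sources used here.

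The respiratory chain passes electrons from NADH through complex I, ubiquinone, complex III and cytochrome c to complex IV, which reduces oxygen; the proton gradient that complexes I, III and IV build is used by ATP synthase. Most subunits are nuclear-encoded and are made in fixed proportions, while a small core is encoded in mitochondrial DNA (not analysed here). Resting alveolar macrophages are known to rely on oxidative metabolism of lipid, and several subunits of complex IV come as a widespread form and a form restricted to muscle, testis or lung.

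The 2 columns of each group agreed nearly within sampling noise: the median squared difference of estimated counts over their sum was 0.52 to 0.61 within groups, where counting alone gives 0.455, and 70.5 to 100.5 between groups. They were therefore treated as 2 runs of 1 library, each group is 1 library, and no p-values are printed. A gene was called different between libraries when its log2(FPKM + 1) differed by at least 1 (2-fold) in the mean of the runs and in each of its run pairings, and if the higher library had 20 FPKM or more; the spread between mice was not measured, so calls describe these libraries. Estimated depth was 7.45 to 9.41 M fragments per column, at which 1 fragment on a 500-base transcript is worth 0.213 to 0.269 FPKM. The marker genes of other cells differed between libraries. The 8 dendritic cell markers summed to 3496 FPKM in the aberrant-marker library, with all 8 at 1 FPKM or more, against 26.7 in the conditional control, 69.1 in normal-marker, 65.9 in wild type and 159 in the germline knockout. Of 7 T cell markers, 6 reached 1 FPKM in the aberrant-marker library, with Cd3e at 17.7 FPKM, while Cd3e and Cd3g were at 0 in the other 4 libraries, where Cd2 carried the list at 24.9 to 455 FPKM. The summed T cell list was 171 FPKM in aberrant-marker. That is below the conditional control (330), normal-marker (263) and wild type (455), and above the germline knockout (24.9). The 5 proliferation markers summed to 1.15 FPKM (aberrant-marker) and 3.07 FPKM (germline knockout), against 98.4 to 115 in the other 3. The alveolar macrophage markers were all 11 at 1 FPKM or more in 3 libraries and 8 of 11 in the other 2, aberrant-marker and germline knockout, where Siglec5 was below 0.14 FPKM. Summed, this list was lowest in aberrant-marker (8905 FPKM) and highest in the germline knockout (47663 FPKM). It was 15758 FPKM in the conditional control, 33515 in normal-marker and 17867 in wild type. The 4 B cell markers were at 0 everywhere, as were the neutrophil markers Ly6g and Retnlg and the epithelial markers Sftpb and Sftpc; the summed neutrophil list lay between 4.83 and 44.1 FPKM and the summed epithelial list between 5.25 and 166. In bulk RNA, fewer cells of a type and less RNA per cell cannot be told apart. The part of these other cells and of proliferation in the results below was not tested.

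Most genes of the respiratory chain and ATP synthase held a steady, high level in all 5 libraries, and the largest differences lay in a few genes. Of the 73 members that reached 20 FPKM in at least 1 library, 52 (71.2%) stayed within 2-fold from the lowest to the highest library; of all 5506 such genes, 1000 (18.2%) did. Those 4-fold or more apart were 7 of the 73 members (9.59%) and 2405 of the 5506 genes (43.7%). Among genes reaching 100 FPKM the counts were 47 of 61 members (77.0%) and 438 of 1466 genes (29.9%), so the contrast was also seen between genes of high level. By complex, 13 of 14 ATP synthase genes stayed within 2-fold, 25 of 35 of complex I, 6 of 8 of complex III and 8 of 14 of complex IV. The 77 mitochondrial ribosomal protein genes, whose products translate the mitochondrial subunits of the same complexes, were less even: 21 of the 67 that reached 20 FPKM (31.3%) stayed within 2-fold. These shares describe 5 libraries and were not tested against each other.

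**Figure D1:**
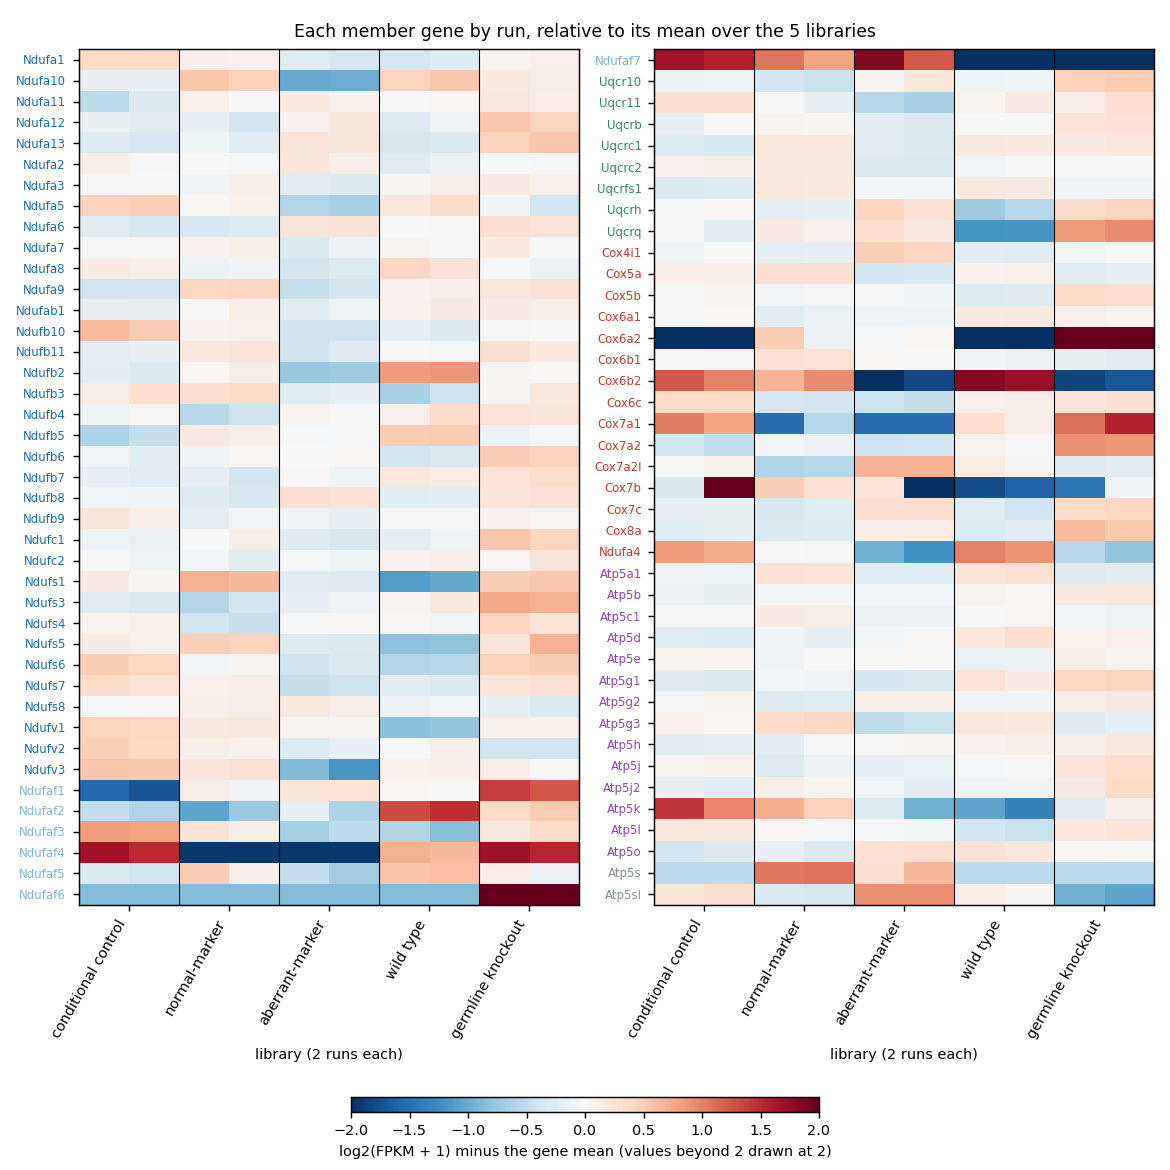
Each row is a gene that passed the filter (1 of the 82 is left out) and each column 1 run; colour is log2(FPKM + 1) minus the mean of that gene over the 5 libraries (blue lower, red higher, values beyond 2 drawn at 2), and the colour of a gene name gives its complex (dark blue complex I, light blue complex I assembly factors, green complex III, red complex IV, purple ATP synthase, grey the other genes named Atp5). Most rows are pale, the 2 runs of a library look alike except for Cox7b, and Cox6b2, Ndufa4, Cox6a2 and the low assembly factors carry the strong colours.

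Together the members held 2.17% to 2.57% of the summed FPKM of a column. The aberrant-marker library was lowest, with 2.19% and 2.17% in its runs, and the germline knockout highest, with 2.55% and 2.57%; without Cox7b, whose runs disagreed, the range was 2.17% to 2.55%. In FPKM the median gene of ATP synthase was at 284 in the conditional control, 299 in normal-marker, 292 in aberrant-marker, 306 in wild type and 314 in the germline knockout. The median of complex I was lower, at 117, 113, 104, 115 and 128 FPKM in the same order. Complex III had medians of 239, 206, 256, 218 and 305 FPKM, and complex IV of 307, 189, 242, 227 and 299. The complex I assembly factors, which are not part of the finished complex, had medians of 6.08 to 13.5 FPKM.

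**Figure D2:**
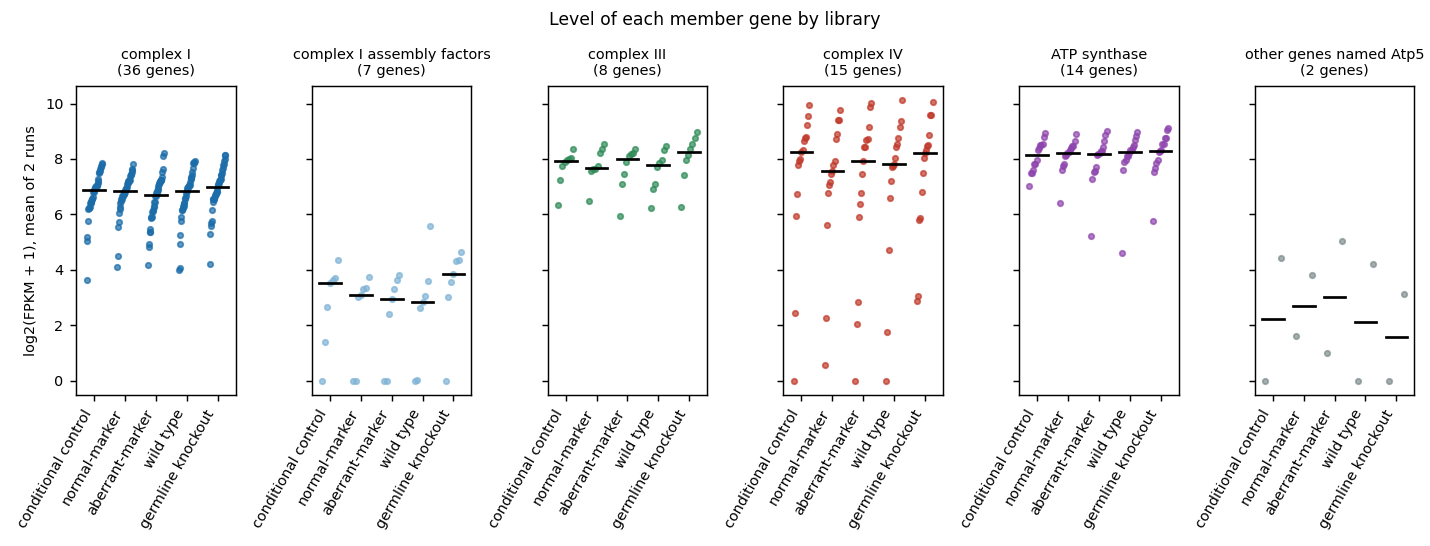
Points are genes, placed by log2(FPKM + 1) of the mean of 2 runs, with 1 panel per complex and 1 column of points per library; black bars are medians. The medians of complex I (104 to 128 FPKM) and of ATP synthase (284 to 314 FPKM) hardly move between libraries, while complex IV and the assembly factors spread down to 0.

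The comparison of the aberrant-marker with the conditional control library, which addresses the knockout macrophages with aberrant surface markers, found 0 members higher and 5 lower: Cox6b2, Ndufa4, Atp5k, Ndufv3 and Ndufa5. Over all genes tested, 8.60% were called higher and 9.13% lower. Since the 20 FPKM floor favours abundant genes, the nearer comparison is among genes at 20 FPKM or more in the higher library, where 5 of 71 members (7.04%) and 42.9% of all genes were called in either direction. The median log2 difference of the members was -0.05, that of all genes 0.00, and the median absolute difference at 20 FPKM or more was 0.36 for members and 0.91 for all genes. The dendritic cell markers were high and the proliferation markers low in this aberrant-marker library, as given above.

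Normal-marker macrophages of the same knockout differed little from the conditional control. No member of 71 at 20 FPKM or more was called, against 3.34% of all genes tested called higher and 4.04% lower, and 19.6% of those at 20 FPKM or more. The largest differences among members of that level were Cox7b (-1.96), whose control runs disagreed, Ndufa9 (0.81), Ndufa4 (-0.79) and Cox6c (-0.76). The median was -0.07.

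Between the 2 fractions of the conditional knockout, 2 members were higher in the aberrant-marker library (Cox7a2l and Atp5sl) and 3 lower (Cox6b2, Ndufa10 and Ndufv3). The background was 9.27% of all genes tested higher and 8.19% lower, and at 20 FPKM or more 5 of 71 members (7.04%) against 43.0% of genes. The median of the members was -0.20, with all genes at 0.02. This comparison shares the aberrant-marker library with the first one.

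The germline knockout had 5 members higher than wild type (Cox6a2, Uqcrq, Ndufs1, Ndufs5 and Ndufs6) and 2 lower (Cox6b2 and Ndufa4). The Ndufs5 call depends on how reads shared with the gene BC002163 were split, as given below. The background was 6.13% of all genes tested higher and 8.98% lower; at 20 FPKM or more, 7 of 72 members (9.72%) and 38.5% of genes were called. The median of the members was 0.18 and 55 of the 82 lay above 0 and 26 below, while all genes had a median of 0.00. The size of that shift depended on scaling: 0.09 with columns brought to an equal sum and 0.32 with median-of-ratios factors. Genes with transcripts under 800 bases, a class that holds 42 of the members, had a median of 0.18 over the 446 such genes of the whole table and 0.23 over the members among them.

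The 2 control libraries, wild type and conditional control, were also compared. They come from different lines, so differences of line and of library cannot be told apart between them. Here 2 members were higher in wild type (Ndufb2 and Ndufaf2) and 4 lower (Cox7b, Atp5k, Ndufv1 and Ndufs1). All genes gave 3.81% higher and 4.15% lower, and at 20 FPKM or more 6 of 72 members (8.33%) against 20.6% of genes were called. The controls thus differed in 6 members, or 5 without Cox7b, whose control runs disagreed. Against their own controls, aberrant-marker differed in 5 members, normal-marker in 0 and the germline knockout in 7. Over all genes the counts were 902 between the controls, 2010 for aberrant-marker, 837 for normal-marker and 1713 for the germline knockout.

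**Figure D3:**
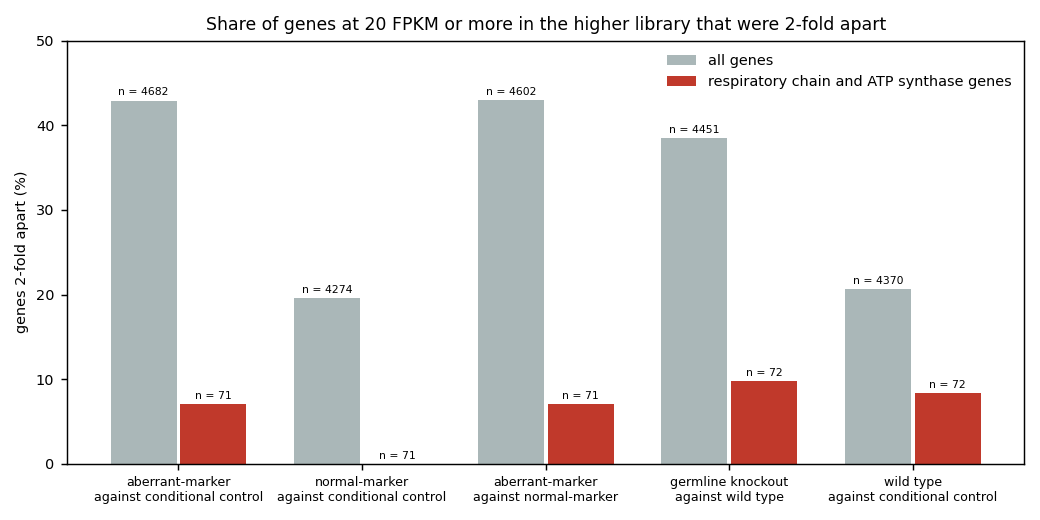
Bars give the percentage of genes called 2-fold apart among those at 20 FPKM or more in the higher library, for all genes (grey) and for the 82 respiratory chain and ATP synthase genes (red) in the 5 comparisons; n is the number of genes at that level. The grey bars run from 19.6% to 43.0% and the red bars from 0 to 9.72%.

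**Figure D4:**
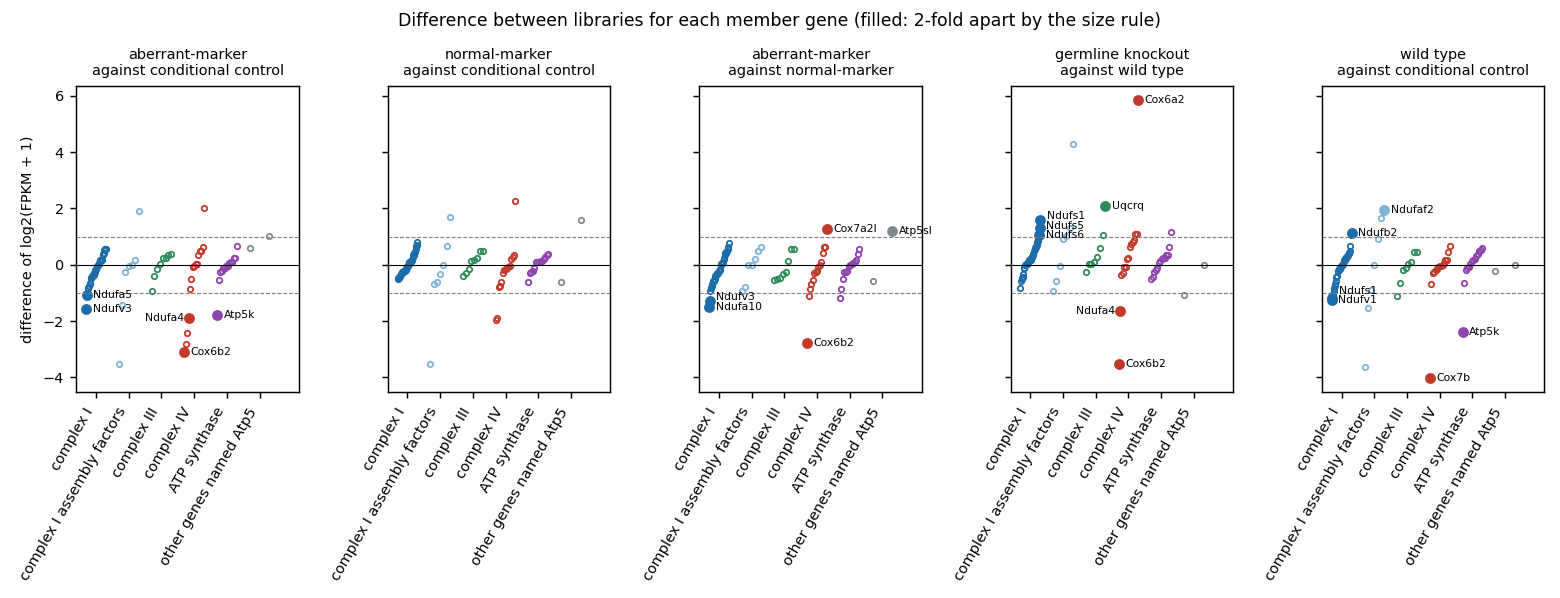
Each point is a gene, placed by its difference of log2(FPKM + 1) between the 2 libraries named above the panel and sorted within its complex; filled, named points were called, and dashed lines mark 2-fold. Open points beyond the dashed lines had under 20 FPKM in the higher library, or run pairings on both sides of 2-fold. Cox6b2 is low in the 3 panels of the aberrant-marker and germline knockout libraries, and the place of Cox6a2, at 0 in wild type, depends on the 1 FPKM added before the logarithm.

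Complex I, NADH dehydrogenase, feeds electrons from NADH into the chain. Its median log2 difference was -0.17 for aberrant-marker against conditional control, -0.07 for normal-marker against conditional control, -0.23 for aberrant-marker against normal-marker, 0.16 for germline knockout against wild type and -0.01 between the controls. Of the 36 subunit genes, 2 were called in the first comparison, 0 in the second, 2 in the third, 3 in the germline comparison and 3 between the controls. The shares of all genes called at 20 FPKM or more were 42.9%, 19.6%, 43.0%, 38.5% and 20.6% in the same order. The 7 core subunits carry the flavin and iron-sulphur clusters or their counterparts conserved from bacteria.

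Ndufs1, the core subunit that holds several iron-sulphur clusters, was at 36.7 and 33.4 FPKM in the 2 runs of the conditional control, 53.6 and 51.3 in normal-marker, 27.2 and 26.9 in aberrant-marker, 14.3 and 15.4 in wild type and 46.0 and 47.2 in the germline knockout. Wild type was the lowest library and did not overlap the others, and the germline knockout lay between the conditional control and normal-marker. It was called higher in the germline knockout (log2 difference 1.59) and lower in wild type than in the conditional control (-1.19), a call not made with the highest transcript alone (-1.06). Ndufv1, which binds NADH and the flavin, was at 88.9 and 88.1 in the conditional control and 36.2 and 37.3 FPKM in wild type (-1.25), with 69.6 and 70.2 in the germline knockout (0.91 against wild type, not called). Both genes were thus low in the wild-type library relative to all 4 others. Ndufs3, another core subunit, had library means between 46.2 and 108 FPKM.

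Among the 29 accessory subunits, which surround the core, Ndufv3 gave 129 and 128 FPKM in the conditional control, 104 and 108 in normal-marker, 47.2 and 38.5 in aberrant-marker, 94.5 and 95.1 in wild type and 97.8 and 89.4 in the germline knockout. Only the aberrant-marker library stood apart from the other 4 for this gene, by -1.56 from its control and -1.29 from normal-marker. Ndufv3 has 2 transcripts in the table. The 1582-base transcript gave 5.04 and 3.84 FPKM in the conditional control, 13.5 and 13.2 in normal-marker, 17.2 and 14.7 in wild type and 6.45 and 6.87 in the germline knockout, and at 0 to 2 decimals in both aberrant-marker runs. The 493-base transcript carried the rest (47.2 and 38.5 FPKM in aberrant-marker), and with it alone the call against normal-marker was not made (-1.10).

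Ndufa5, an accessory subunit of the arm that faces the matrix, gave 86.5 and 88.0 FPKM in the conditional control and 41.2 and 39.6 in aberrant-marker (-1.09), with 64.3 and 67.6 in normal-marker. The germline knockout had 59.7 and 47.4 FPKM against 73.3 and 81.4 in wild type (-0.52, not called). Ndufa10 was at 119 and 113 FPKM in normal-marker and 40.4 and 40.9 in aberrant-marker (-1.49), with 73.2 in both runs of the conditional control between them. The 3 genes were each lowest in the aberrant-marker library.

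Ndufs5 gave 118 and 113 FPKM in the conditional control, 148 and 146 in normal-marker, 87.1 and 86.4 in aberrant-marker, 59.3 and 59.8 in wild type and 127 and 172 in the germline knockout (1.31 against wild type). Its transcript shares 31.1% of its 50-base words with BC002163, another gene that the table lists at 12.6 and 22.5 FPKM in wild type and at 7.51 and 0.03 in the germline knockout. Reads of the 2 cannot be told apart with certainty. With their levels joined, germline knockout run 1 against wild type run 2 falls short of 2-fold, so the call would not be made. The Ndufs5 call therefore depends on how reads were split between the 2 genes. Ndufs6, a zinc-binding subunit, was at 73.0 and 74.0 FPKM in wild type and 153 and 155 in the germline knockout (1.06), where the conditional control had 155 and 149. As for Ndufs1, wild type was the lowest library for both. Ndufb2 was highest there, at 180 and 184 FPKM against 85.1 and 81.3 in the conditional control (1.12).

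The 7 complex I assembly factors help build the complex and leave it. They were low, and their values went to 0 in whole libraries. Ndufaf6 was listed at 0 in 8 columns and at 16.9 and 20.5 FPKM in the germline knockout. Ndufaf4 was at 0 in all normal-marker and aberrant-marker columns, and at 11.3 and 9.77 FPKM in the conditional control, 5.27 and 5.01 in wild type and 11.2 and 10.1 in the germline knockout. Ndufaf7 was at 0.0524 FPKM or less in wild type and germline knockout and between 6.35 and 14.1 in the conditional line. Ndufaf1 gave 1.79 and 1.49 FPKM in the conditional control and 20.3 and 18.3 in the germline knockout. None of these 4 reached 20 FPKM in a library mean, so none was called. Ndufaf2 was called higher in wild type, at 44.0 and 49.7 FPKM against 12.03 and 11.03 in the conditional control (1.93), but 65.7% of its exon bases overlap B230220B15Rik on the opposite strand, and the libraries do not mark strand.

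Complex III, the cytochrome bc1 complex, passes electrons from ubiquinol to cytochrome c. Its 8 genes included 1 called member, Uqcrq, called only in the germline knockout against wild type. There, 38.5% of all genes at 20 FPKM or more were called. Uqcrq, a small subunit next to cytochrome b, gave 276 and 232 FPKM in the conditional control, 304 and 288 in normal-marker, 345 and 310 in aberrant-marker, 118 and 119 in wild type and 493 and 523 in the germline knockout. Wild type was the lowest and the germline knockout the highest of the 5 libraries, with no overlap, and the difference between them was 2.09. Against the conditional control, wild type was lower by a log2 difference of -1.10, not called because the pairings with 1 of the control runs were under 2-fold. The core subunit Uqcrc1 lay between 233 and 330 FPKM and the Rieske iron-sulphur protein Uqcrfs1 between 151 and 212 FPKM over the 5 libraries, both within 2-fold. The medians of complex III were 0.12, 0.14, -0.29, 0.19 and -0.05 in the order of comparisons above.

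Complex IV, cytochrome c oxidase, hands the electrons to oxygen, and it held the 3 members that differed most over the 5 libraries among those reaching 20 FPKM: Cox6a2, Cox7b, whose runs disagreed, and Cox6b2. Its large common subunits were steady. Cox4i1, which is needed for assembly, had 749 FPKM in the conditional control, 682 in normal-marker, 1049 in aberrant-marker, 657 in wild type and 765 in the germline knockout. Cox5a lay between 417 and 679 FPKM and Cox5b between 209 and 322 FPKM. Cox6a1 lay between 880 and 1125 FPKM, the most abundant member in 4 of the libraries. The tissue forms Cox4i2, Cox8b and Cox8c, and Ndufa4l2, the paralogue of Ndufa4, were listed at 0 in all 10 columns.

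Cox6b2, known as the testis form of the subunit VIb that joins 2 monomers of the enzyme, was present in control macrophages and low in the aberrant-marker and germline knockout libraries. It gave 64.6 and 55.1 FPKM in the conditional control, 43.7 and 52.6 in normal-marker, 5.23 and 6.98 in aberrant-marker, 97.6 and 90.9 in wild type and 6.82 and 7.58 in the germline knockout. The 2 low libraries did not overlap the other 3. The log2 difference was -3.10 for aberrant-marker against conditional control, -2.79 against normal-marker and -3.54 for germline knockout against wild type, while normal-marker differed from its control by -0.31 and the 2 controls by 0.65. Those 3 were the largest falls among the called members of their comparisons. The widespread form Cox6b1 was at 399, 483, 405, 375 and 352 FPKM in the order of libraries above, so the share of Cox6b2 in the sum of the pair was 13.0% in the conditional control, 9.07% in normal-marker, 1.48% in aberrant-marker, 20.1% in wild type and 2.00% in the germline knockout. Neither Cox6b2 nor Cox6b1 is among the 18 members that share 10% or more of their 50-base words with another annotated gene. The 18 include Ndufs3 (35.8%), Cox5b (25.9%), Atp5g2 (14.8%) and Cox6a1 (12.3%), and the highest share was that of Atp5l (68.5%).

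Ndufa4, named as a complex I subunit and now placed in complex IV, followed the same order of libraries. It gave 318 and 295 FPKM in the conditional control, 176 and 178 in normal-marker, 88.1 and 74.95 in aberrant-marker, 353 and 329 in wild type and 118 and 101 in the germline knockout. The controls were high, normal-marker in between, and the other 2 low, with no overlap. The log2 differences were -1.90 for aberrant-marker, -0.79 for normal-marker (not called) and -1.63 for the germline knockout against their controls. Aberrant-marker against normal-marker was -1.11, with 1 run pairing short of 2-fold, and was called after either scaling (-1.14 and -1.23). Both Cox6b2 and Ndufa4 were low in the 2 libraries that also had few proliferation markers; the aberrant-marker library had high dendritic cell markers and the germline knockout library had them at 159 FPKM. Of the 11 alveolar macrophage markers, 9 were called lower in aberrant-marker than in the conditional control (median -3.54), and 7 lower and 1 higher in the germline knockout than in wild type (median -4.33). The summed FPKM of these markers was nevertheless higher in the germline knockout (47663) than in wild type (17867). Of all genes tested, 9.13% were lower in aberrant-marker, and 8.98% lower and 6.13% higher in the germline knockout, against their controls. Normal-marker had 3 of the 11 markers higher and 3 lower than the conditional control (median -0.34), where 3.34% and 4.04% of all genes were called. The part of these markers in the levels of Cox6b2 and Ndufa4 was not tested.

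Cox6a2, known as the heart and muscle form of subunit VIa, was listed at 0 in both runs of the conditional control and of wild type, at 4.80 and 2.78 FPKM in normal-marker, 2.96 and 3.22 in aberrant-marker, and 58.8 and 55.7 in the germline knockout. It made 5.10% of the sum with Cox6a1 in the germline knockout. No fold is given against a library listed at 0. Its exons overlap those of Itgad on the opposite strand over 10.3% of their bases. Cox7a1, the muscle form of subunit VIIa, was low everywhere, at 4.42, 0.473, 0, 2.39 and 6.29 FPKM, beside 105 to 264 FPKM of the widespread Cox7a2.

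Cox7a2l, a factor that joins complexes III and IV into supercomplexes, gave 213 and 227 FPKM in the conditional control, 139 and 144 in normal-marker, 338 and 343 in aberrant-marker, 234 and 220 in wild type and 176 and 180 in the germline knockout. Aberrant-marker was the highest library and normal-marker the lowest, and their difference was 1.26; against the conditional control aberrant-marker differed by 0.63, not called. Of its 50-base words, 17.7% are shared with another annotated gene. Cox7b was the only member whose runs disagreed 4-fold. It gave 65.4 and 788 FPKM in the conditional control, 116 and 101 in normal-marker, 99.8 and 18.6 in aberrant-marker, 23.4 and 26.5 in wild type and 29.7 and 78.3 in the germline knockout. Its level therefore cannot be given for the conditional control or aberrant-marker libraries, and its call between the controls (-4.04) rests on a mean of 2 unlike runs, though 65.4 FPKM in the lower run is still above wild type. Among genes at 20 FPKM or more, 4 of 3716 in the conditional control and 8 of 3728 in aberrant-marker disagreed by as much.

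**Figure D5:**
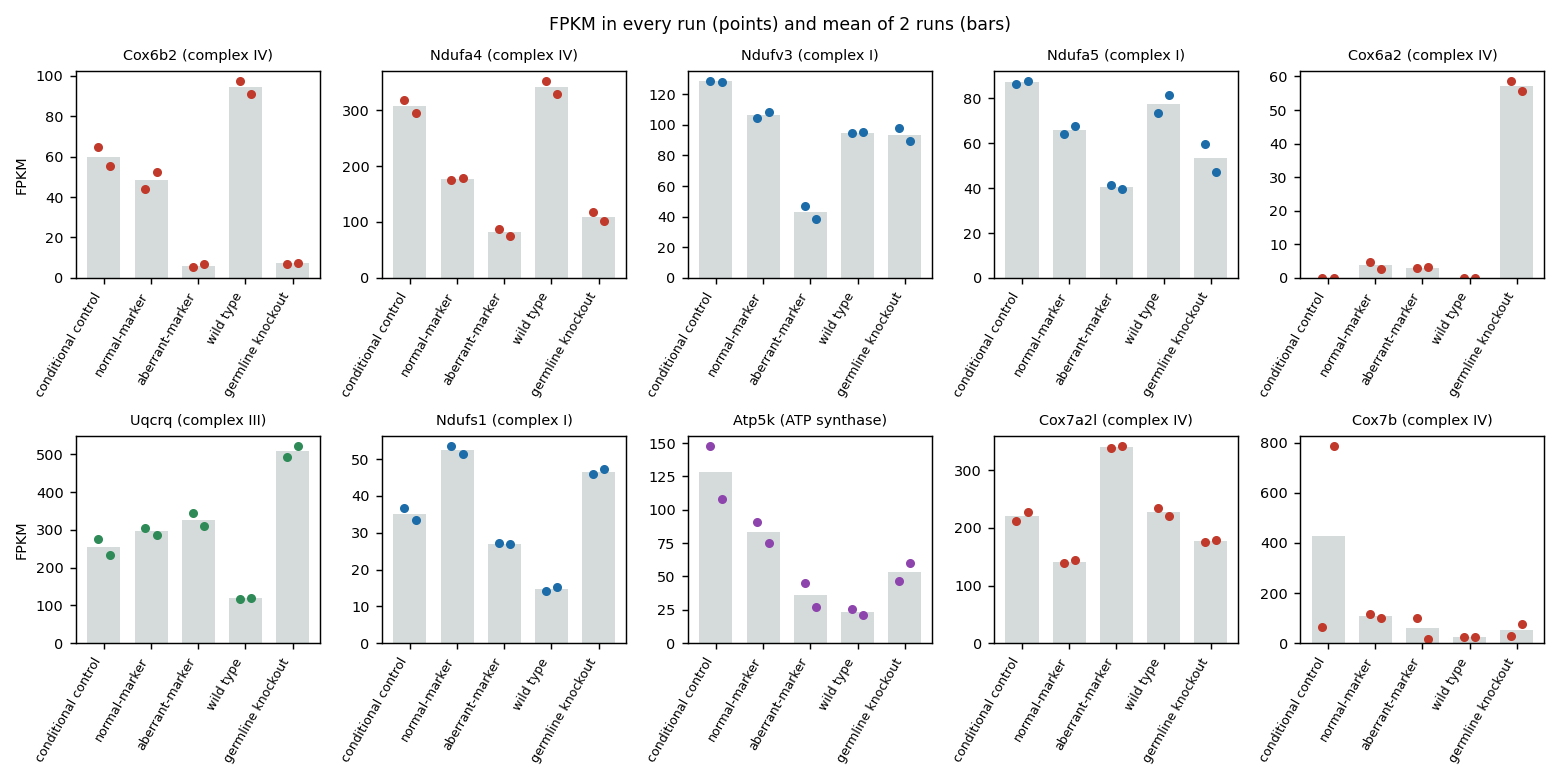
Bars are the mean FPKM of 2 runs and points the runs, on linear axes that start at 0, for 10 genes in the 5 libraries. Cox6b2 and Ndufa4 are low in aberrant-marker and germline knockout, Cox6a2 is present mainly in the germline knockout, Uqcrq and Ndufs1 are lowest in wild type, and the runs of Cox7b lie far apart in the conditional control.

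The promoters of the complex IV isoform pair Cox6b1 and Cox6b2, of Cox6a1 and of Ndufa4 are shown because the steady and the variable forms of 1 enzyme can be set side by side. They are RefSeq sequences of build GRCm38.p6, from 250 bases before to 50 after the transcription start, given on the strand of the gene, which is the minus strand for all of them. Capitals mark matches on either strand to motifs of factors known to drive respiratory genes: GCGCATGCGC or the looser GCGCNNGCGC for NRF1, which overlap where both match, CCGGAAG for the ETS factor GABPA, and AAGATGG for YY1.
Cox6b1 (chr7:30626065-30626364): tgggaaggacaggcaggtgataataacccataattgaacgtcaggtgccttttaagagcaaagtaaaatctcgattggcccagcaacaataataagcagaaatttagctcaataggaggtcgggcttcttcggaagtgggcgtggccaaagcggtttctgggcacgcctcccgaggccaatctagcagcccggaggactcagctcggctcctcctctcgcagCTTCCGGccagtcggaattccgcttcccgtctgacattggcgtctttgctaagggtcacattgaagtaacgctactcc
Cox6b2 (chr7:4753045-4753344): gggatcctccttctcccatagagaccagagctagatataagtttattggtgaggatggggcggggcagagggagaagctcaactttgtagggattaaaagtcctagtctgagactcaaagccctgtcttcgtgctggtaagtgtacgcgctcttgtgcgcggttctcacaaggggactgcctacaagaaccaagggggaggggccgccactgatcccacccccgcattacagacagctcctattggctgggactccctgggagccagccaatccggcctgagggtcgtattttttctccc
Cox6a1 (chr5:115348909-115349208): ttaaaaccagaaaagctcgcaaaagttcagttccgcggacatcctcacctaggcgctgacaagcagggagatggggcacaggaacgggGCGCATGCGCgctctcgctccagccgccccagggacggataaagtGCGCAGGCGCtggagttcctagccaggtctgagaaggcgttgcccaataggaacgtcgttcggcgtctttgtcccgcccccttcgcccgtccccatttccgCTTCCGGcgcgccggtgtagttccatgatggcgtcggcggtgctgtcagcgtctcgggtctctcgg
Ndufa4 (chr6:11907401-11907700): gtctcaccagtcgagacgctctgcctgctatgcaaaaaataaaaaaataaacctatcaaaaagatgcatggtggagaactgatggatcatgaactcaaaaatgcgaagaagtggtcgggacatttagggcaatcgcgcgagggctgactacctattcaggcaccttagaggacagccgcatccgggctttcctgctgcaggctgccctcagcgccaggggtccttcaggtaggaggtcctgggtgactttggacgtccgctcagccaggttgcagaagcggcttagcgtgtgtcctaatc

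Cox6b1 holds 1 GABPA match and Cox6a1 holds NRF1 and GABPA matches, while no match was found in these windows for Cox6b2 and Ndufa4. The contrast did not hold for all members. Atp5k, whose level varied, had NRF1 and GABPA matches, and Atp5b, Cox5a and Cox5b, which stayed within 2-fold, had none. Whether matches go with steady levels was not tested. Of the members, 70 had a promoter in the table. GCGCATGCGC was found in 7 of the 70 (10%), against 2.43% of the 9071 tested genes with a promoter and 1.07% of all 27025; the 7 are Atp5g2, Atp5k, Cox6a1, Ndufa11, Ndufaf4, Ndufaf5 and Uqcrc1. GCGCNNGCGC was found in 27.1%, 15.4% and 7% of these sets, CCGGAAG in 21.4%, 21.4% and 9.93%, and AAGATGG in 15.7%, 8.86% and 7.28%. A match is a run of letters and not a measured binding site.

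ATP synthase, which turns the proton gradient into ATP, was the steadiest complex over the 14 genes examined; not every subunit of the enzyme is analysed here. The catalytic head subunits Atp5a1 (205 to 294 FPKM), Atp5b (446 to 553 FPKM) and Atp5c1 (293 to 354 FPKM) each stayed within 2-fold over the 5 libraries. The 3 genes for subunit c, which encode the same mature ring protein with different import sequences, kept their order of Atp5g2 first in each library: Atp5g2 made 53.6% of their sum in the conditional control, 44.0% in normal-marker, 60.1% in aberrant-marker, 46.3% in wild type and 51.3% in the germline knockout. Atp5g3 had the lowest shares in the aberrant-marker (18.2%) and germline knockout (18.0%) libraries, against 25.03% to 31.5% in the others. The medians of the complex were -0.06, 0.10, -0.03, 0.17 and 0.14.

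Atp5k, the small membrane subunit e that helps pair the enzyme into dimers, was the exception. It gave 148 and 108 FPKM in the conditional control, 91.1 and 75.2 in normal-marker, 45.0 and 27.3 in aberrant-marker, 25.9 and 20.8 in wild type and 46.6 and 60.3 in the germline knockout. The conditional control was the highest library and wild type the lowest, and its runs differed more than those of most members. Aberrant-marker was lower than the conditional control by a log2 difference of -1.80 but higher than wild type by 0.61, so the direction depends on which control is used. The controls differed by -2.40, more than either knockout from its own control. Atp5sl, which is not a subunit of the enzyme, was at 31.5 and 31.7 FPKM in aberrant-marker and 13.2 and 12.9 in normal-marker (1.21).

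Genes of the same pathway outside the symbol rule were read from lists. Complex II, succinate dehydrogenase, has 4 genes: Sdhb, its iron-sulphur subunit, had 213 FPKM in the conditional control, 206 in normal-marker, 94.0 in aberrant-marker, 170 in wild type and 134 in the germline knockout, and was lower in aberrant-marker than in the conditional control (-1.17) and normal-marker (-1.13). Sdhc was higher in the germline knockout than in wild type (1.06), and the other 2 were not called in any comparison. Cytochrome c itself (Cycs) was at 45.4, 68.3, 95.7, 60.6 and 131 FPKM, higher in aberrant-marker than in its control (1.06), and called higher in the germline knockout than in wild type too; Cyc1 was not called. Cycs and Sdhb thus lay on opposite sides of the conditional control in the aberrant-marker library. Among all genes at 20 FPKM or more, 42.9% were called in aberrant-marker against the conditional control. The shares were 43.0% in aberrant-marker against normal-marker and 38.5% in the germline knockout against wild type.

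The uncoupling proteins are inner-membrane carriers named after the uncoupling of brown fat. Ucp2, the form known for macrophages, gave 1999 and 2009 FPKM in the conditional control, 1535 and 1527 in normal-marker, 505 and 534 in aberrant-marker, 1791 and 1777 in wild type and 365 and 362 in the germline knockout. It was lower in aberrant-marker than in the conditional control (-1.95) and normal-marker (-1.56), and lower in the germline knockout than in wild type (-2.29). Ucp3 was at 57.7, 19.1, 0, 27.0 and 0.0528 FPKM and was called lower in aberrant-marker and normal-marker against the conditional control, in the germline knockout against wild type and in wild type against the conditional control. Ucp1 was at 0 throughout. Both genes were low in the same 2 libraries as Cox6b2 and Ndufa4. Coq9, needed for ubiquinone synthesis, was at 46.6, 71.6, 3.14, 40.2 and 10.2 FPKM. It was the only 1 of 10 ubiquinone synthesis genes called in aberrant-marker against its control (-3.53), where 9.13% of all genes were lower. With Adck3 and Pdss2, Coq9 was lower in the germline knockout than in wild type (-1.87), as were 8.98% of all genes. Aberrant-marker against normal-marker had 1 of the 10 higher and 2 lower, against 9.27% and 8.19% of all genes. Normal-marker against its control had 1 higher and 1 lower (3.34% and 4.04% of all genes). Wild type against the conditional control had 2 higher (3.81% of all genes).

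Of 20 complex IV assembly genes tested, 2 were higher (the copper chaperone Cox17, and Coa5) and 2 lower (Sco2 and Cox19) in aberrant-marker against the conditional control, where 8.60% and 9.13% of all genes were called. In the germline knockout against wild type, where the shares of all genes were 6.13% and 8.98%, Sco2 and Cox19 were higher and Surf1 and Lrpprc lower, so Sco2 and Cox19 went in opposite directions in the 2 lines. Sco2 had 37.4 FPKM in the conditional control, 12.5 in normal-marker, 8.13 in aberrant-marker, 0 to 2 decimals in wild type and 31.6 in the germline knockout. Wild type was thus the lowest library for Sco2, and the germline knockout lay below the conditional control. The direction for Sco2 therefore depends on which control is used. Of 5 ATP synthase assembly and inhibitor genes tested, Tmem70 was higher in aberrant-marker (91.2 FPKM) than in the conditional control (38.5 FPKM), and Usmg5, a small membrane subunit of the enzyme, was higher in the germline knockout (135 FPKM) than in wild type (55.6 FPKM). The assembly factor Atpaf1 was lower in the germline knockout (5.72 FPKM) than in wild type (24.0 FPKM). Of 4 complex III assembly genes, Uqcc3 was lower in aberrant-marker (11.1 FPKM) than in the conditional control (24.4 FPKM). The complex II assembly factor Sdhaf1 had 94.7 FPKM in aberrant-marker, 7.79 in normal-marker, 39.9 in wild type and 27.2 in the germline knockout, and was listed at 0 in the conditional control; wild type was therefore also called higher than the conditional control. Among 5 carriers and porins, the phosphate carrier Slc25a3, which supplies ATP synthase, was higher in aberrant-marker (319 FPKM) than in the conditional control (149 FPKM), but wild type was higher still (363 FPKM). Of 6 mitochondrial antioxidant genes, Prdx5 was lower in aberrant-marker (213 FPKM) than in the conditional control (659 FPKM). Of 77 mitochondrial ribosomal protein genes, 2 were higher and 7 lower in aberrant-marker against its control, 3 and 4 in normal-marker against its control, 5 and 6 in aberrant-marker against normal-marker, 9 and 5 in the germline knockout against wild type and 5 and 8 between the controls. Over all genes tested, the shares called higher and lower in these comparisons were 8.60% and 9.13%, 3.34% and 4.04%, 9.27% and 8.19%, 6.13% and 8.98%, and 3.81% and 4.15%.

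Among 14 tested regulators of mitochondrial biogenesis, 1 (Gabpb1) was higher and 0 lower in aberrant-marker against its control, against 8.60% and 9.13% of all genes. Yy1 was lower in normal-marker than in the conditional control (-1.60), and Gabpb1 (2.85) and Yy1 (2.24) were higher in aberrant-marker than in normal-marker. None was called in the germline comparison or between the controls. The coactivator Ppargc1a was at or below 0.300 FPKM in every library mean and did not pass the filter. Its relative Ppargc1b was at 2.76, 8.24, 0.578, 3.63 and 3.42 FPKM. The transcription factor Nrf1 was at 19.5, 15.6, 13.1, 25.5 and 12.5 FPKM and Gabpa at 6.40, 3.60, 9.18, 8.91 and 6.43. The mitochondrial DNA packaging factor Tfam was at 8.24, 0.936, 7.07, 7.13 and 1.01 FPKM and the nuclear receptor Esrra at 12.8, 9.62, 0, 19.6 and 7.13. These low values are near the level at which single genes drop to 0 in these libraries, and no difference in these 6 genes was called.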

How the data were processed

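Per the labels' protocols, 100 pg of RNA were copied and amplified by a SMARTer low-input kit over 18 PCR cycles, then sheared for Ovation Ultralow library construction; such libraries carry no molecular identifiers and no strand. The authors deposited 1 table of 45913 RefSeq transcripts in 10 columns. Its header names no unit; the deposited values are taken as FPKM from their column sums (625660 to 668491) and from fragment steps that scale with transcript length. The submitters' processing notes name Bowtie 1.1.2 and eXpress 1.5.1, with no role. The genome build is not given in the sources used here. All columns matched a sample and 0 were left out.

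FPKM were summed per Entrez gene and averaged over the 2 runs of a library (Python 3.11.15, pandas 2.3.3), without rescaling. Genes at 1 FPKM or more in 2 columns were compared on log2(FPKM + 1) with the size rule given above. The rule was tested on simulated runs drawn from 1 column with counting noise only. That simulation cannot show how the rule performs with spread between mice or library preparations. FPKM are not counts, and no count test was run. Numbering of samples follows accession order. Transcript words and exon overlaps came from GENCODE M21, promoters from RefSeq. The members, lists and rules were chosen with earlier results of these data known. Named are the 5 largest rises and falls per comparison among members at 20 FPKM or more, core subunits, isoform sets, 4-fold run disagreements, up to 3 called genes per other list and 6 regulators; further genes were named after their values were seen. Alternatives covered the pseudocount, filter, floor, fold, scaling, transcript summing and each run left out; wild type as the reference and leaving out Cox7b or Ndufaf6 were added after seeing the data. The single values of 2 genes are not reported here.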

Additional observations from a re-analysis of the deposited data

Results flagged for a closer look

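The 2 lines were compared by whether the runs of one knockout all lay on one side of their control and those of the other on the opposite side. None of these differences was tested, and each rests on 1 library per group. For aberrant-marker against conditional control and germline knockout against wild type, the medians of all 82 genes were -0.05 and 0.18 on the log2 scale, 0.23 apart. Complex I had -0.17 and 0.16 (0.33 apart), complex IV -0.06 and 0.22 (0.28 apart) and ATP synthase -0.06 and 0.17 (0.22 apart). Single genes lay further apart: Atp5k at -1.80 and 1.16 (2.96 apart), Ndufs1 at -0.36 and 1.59 (1.95 apart) and Ndufs5 at -0.41 and 1.31 (1.73 apart). For these 3 genes wild type was the lowest of the 5 libraries, and the germline knockout was below the conditional control for Atp5k only. For normal-marker against conditional control and germline knockout against wild type, the medians were -0.07 and 0.18 over all members (0.24 apart), -0.34 and 0.92 for the complex I assembly factors (1.27 apart) and -0.14 and 0.22 for complex IV (0.35 apart). The assembly factors were all low, and Ndufaf6 passed the filter only through the 2 germline knockout columns; without it their medians were -0.49 and 0.44.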

How the results depend on the processing

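No paired analysis was possible because each group was treated as 1 library sequenced in 2 runs, the labels give the groups no shared sample numbers, and no test was run. Over the alternatives, 117 of 134 counts of called members stayed within 1.5 times the main count. With a 4-fold threshold, aberrant-marker against conditional control had 1 lower, aberrant-marker against normal-marker 0 higher and 1 lower, the germline knockout 2 higher and 1 lower, and the controls 0 higher and 1 lower. With a floor of 5 FPKM, 1 member was higher in aberrant-marker against the conditional control, and 1 higher and 1 lower in normal-marker. Median-of-ratios scaling gave 5 lower in aberrant-marker against normal-marker. With wild type as the reference, aberrant-marker had 1 higher, normal-marker had 5 higher and 1 lower, and Atp5k reversed in aberrant-marker, to 0.61; the cause was not tested. Leaving out single runs gave 0 to 1 lower in normal-marker (Cox7b at -2.85 without conditional control run 1), 3 to 6 lower in aberrant-marker against normal-marker (6 without aberrant-marker run 1, which added Cox7b at -2.49, Atp5k at -1.57 and Ndufa4 at -1.23) and 6 to 9 higher in the germline knockout (9 without its run 1, among them Atp5k at 1.33 and Cox7b at 1.61). Cox7b was also called in aberrant-marker against the conditional control without aberrant-marker run 1 (-4.45) or conditional control run 1 (-3.71). Medians of all members lay between -0.11 and -0.03 for aberrant-marker and between 0.09 and 0.32 for the germline knockout against their controls, between -0.31 and -0.12 for aberrant-marker against normal-marker, and between -0.04 and 0.01 for the controls; for normal-marker they ran from -0.08 to 0.03. Values near 1 FPKM stand for a few fragments, and PCR duplicates cannot be recognised.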
